A study of Mus musculus with 12 samples.

Results

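N6-methyladenosine (m6A) ratios were compared between mouse embryonic stem cells that carry Alkbh5 del-cIDR and cells that are Alkbh5 KO. All 12923 peak rows of the deposited m6A table were taken, and the rows of the control RNAs were left out. These are all the peaks of the series, and 9451 of them, whose ratios averaged at least 1 over the IP libraries, were tested. The comparison asks whether cells with the truncated enzyme hold m6A below the level of cells without it, and whether this depends on the level or the width of a peak.

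The cells were of the line E14TG2a, a mouse embryonic stem cell line. The medium held serum, LIF, PD0325901 (a MEK inhibitor) and CHIR99021 (a GSK3 inhibitor). MeRIP-seq sets fragments of mRNA that an antibody to m6A pulls down (IP) against the same RNA before the pull-down (input). The 12 samples are 2 input and 2 IP samples each of WT cells, of cells with Alkbh5 del-cIDR and of Alkbh5 KO cells, and no other treatment or allele is named. The labels do not say whether a genotype is 1 clone or whether replicates are separate cultures, so the p-values measure only the spread between these samples, which may be technical.

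The mark m6A is written on nascent mRNA by the Mettl3-Mettl14 complex, mostly at adenosines within short consensus sequences, and is bound by YTH domain proteins that affect the decay, splicing and translation of the transcript. Alkbh5 is an oxygenase of the AlkB family, found mainly in the nucleus, that takes the methyl group off. Its catalytic domain is folded, while the C-terminal part removed in del-cIDR is an intrinsically disordered region, a stretch of protein without a fixed fold. In embryonic stem cells m6A is known for limiting the lifetime of transcripts that maintain pluripotency.

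The measured value is the ratio of IP to input reads at a peak, scaled so that a control RNA named as m6A has the same ratio, 4.10, in every library. Written as fractions in lowest terms, the ratios of the median peak stood on at least 106 and 64 input reads in the del-cIDR libraries and at least 125 and 107 in the KO libraries, with 265, 197, 242 and 211 IP reads in the same order. The peaks are given by position only (GRCm39, counted from 1). Gene names, transcript strand and sequence at these positions were not used here, since the reference tables given are of GRCm38, and the markers of the cell type and the level of Alkbh5 itself were for the same reason not checked.

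Ratios in del-cIDR cells lay a little below those of KO cells at most peaks. Of the 9451 peaks tested, 7592 (80.3%) had the lower mean in del-cIDR and 1859 the higher one. The median peak was 14.1% lower in del-cIDR than in KO, and the median difference was -0.15 on the log2(ratio + 1) scale, on which the added 1 shrinks the differences of low ratios. The middle of the distribution was narrow, from -0.25 at the 25th percentile to -0.03 at the 75th. At 143 peaks del-cIDR was at least 2-fold lower and at 21 at least 2-fold higher.

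The median ratio of the tested peaks was 1.98 and 1.97 in the del-cIDR libraries and 2.15 and 2.45 in the KO libraries. The WT libraries, for orientation, had medians of 2.12 and 1.88. Both del-cIDR libraries thus lay below both KO libraries, and between the medians of both WT libraries. The mean of the library medians was 1.97 ± 0.0096 in del-cIDR and 2.30 ± 0.212 in KO (SD, n = 2 each). An exact two-sided permutation test of these 2 against 2 library medians on the log2(ratio + 1) scale gave p = 0.333, the smallest p it can give.

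How large the shift appears depends on the KO library. Against KO replicate 1 the median difference was -0.07 for del-cIDR replicate 1 and -0.09 for del-cIDR replicate 2, with 64.0% and 67.0% of peaks lower. Against KO replicate 2 it was -0.21 and -0.22, with 80.5% and 82.8% of peaks lower. The KO replicates differed from each other by -0.13 (replicate 1 minus 2), nearly as much as the genotypes did, whereas the del-cIDR replicates differed by 0.02. All 4 pairs of a del-cIDR and a KO library had the same direction. Without KO replicate 2 the median difference between genotypes was -0.08, with 67.2% of peaks lower.

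**Figure D1:**
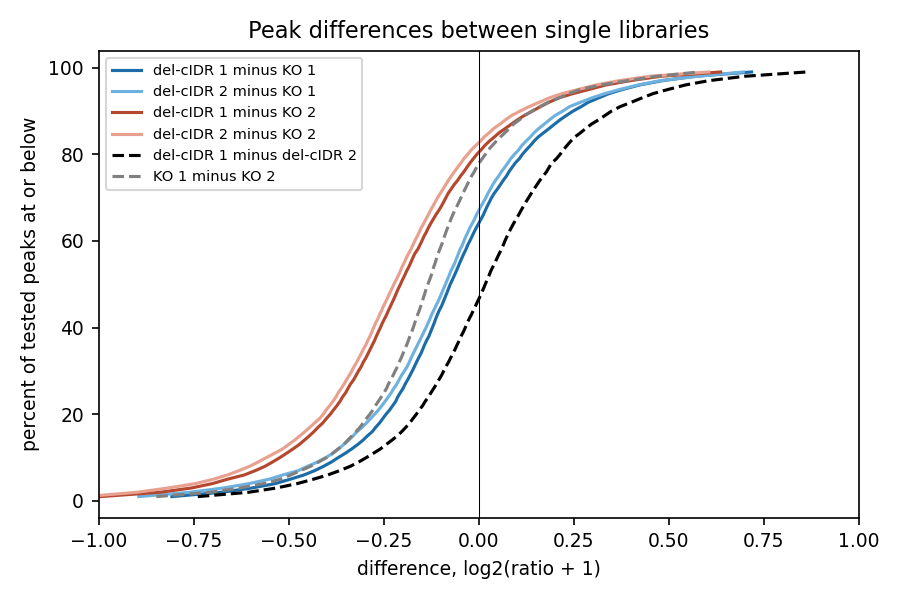
Cumulative share of the tested peaks (y axis, percent) by the difference between 2 single libraries on the log2(ratio + 1) scale (x axis). Solid lines set a del-cIDR library against a KO library and dashed lines set replicates of 1 genotype against each other. At its median of -0.13, the curve of the KO replicates lies between those of del-cIDR against KO replicate 1 and those against KO replicate 2. In both tails it crosses some of them.

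No peak passed the test (limma, Benjamini-Hochberg adjusted p under 0.05, smallest adjusted p = 0.160). An unadjusted p under 0.05 was found at 1112 peaks, where the number of tests times 0.05 is 473. Of these, 986 (10.4% of all tested) were lower and 126 (1.33%) higher in del-cIDR. Without KO replicate 2 the number with an unadjusted p under 0.05 was 594. Both del-cIDR libraries lay below both KO libraries at 4191 peaks (44.3%) and above both at 490 (5.18%), and at the other 4770 peaks the libraries of the genotypes overlapped.

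The direction of the shift rests on the constants that scale each library to the control RNA. Without them the values are plain ratios of IP to input reads, with no correction for how deeply each sample was sequenced. Sequencing depth and the scaling to the control cannot be told apart in the unscaled values below. The constants that scale the ratios were 0.586 and 0.491 in del-cIDR and 0.823 and 0.945 in KO. Before they were applied, the median ratio was 3.38 and 4 in del-cIDR and 2.61 and 2.59 in KO, and 5.16% of peaks were lower in del-cIDR. On these unscaled values 146 peaks passed the adjusted threshold, 1 lower and 145 higher in del-cIDR. Recovered in lowest terms, the control had at least 459 and 547 input reads and 3211 and 4562 IP reads in del-cIDR. In KO it had at least 1031 and 1273 input reads and 5138 and 5524 IP reads. From these reads alone, the 95% counting interval of the median log2 ratio difference of -0.22 (no added 1) runs from -0.33 to -0.10. It does not cover the spread between replicates or how evenly the control was added, so it does not test the difference between genotypes. When every library was centred on its own median instead, the overall shift was removed by construction. The peaks whose libraries did not overlap were then split nearly evenly, 1892 lower (20%) and 1935 higher (20.5%), as were those with an unadjusted limma p under 0.05, 381 lower (4.03%) and 430 higher (4.55%).

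The shift was found at every peak level. The tested peaks were divided into 5 equal groups by their mean ratio over all 6 IP libraries. In group 1, with mean ratios of 1.00 to 1.36, the median ratios were 1.08 and 1.11 in the del-cIDR libraries and 1.21 and 1.38 in the KO libraries. In group 3, with mean ratios of 1.82 to 2.46, they were 1.98 and 1.97 against 2.15 and 2.45. In group 5, with mean ratios of 3.61 to 35.1, they were 4.82 and 4.46 against 4.85 and 5.54. In all 3 of these groups both del-cIDR medians lay below both KO medians, but in group 5 del-cIDR replicate 1 and KO replicate 1 were nearly equal.

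From the lowest to the highest group the median differences were -0.13, -0.15, -0.15, -0.16 and -0.14 on the log2(ratio + 1) scale. As a ratio of genotype means, the median peak of group 1 was 15.7% lower in del-cIDR and that of group 5 was 11.3% lower. With a pseudocount of 0.1, which shrinks low ratios less, the median differences were -0.23 in group 1 and -0.17 in group 5. Whether low peaks differ more than high ones thus depends on the scale. Without the scaling to the control the median differences were 0.30 in group 1 and 0.47 in group 5, both higher in del-cIDR.

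Over libraries, no difference between the genotypes in how the ratios spread with level could be shown. The step from group 1 to group 5 in a library's median was 1.49 and 1.37 in del-cIDR and 1.40 and 1.46 in KO on the log2(ratio + 1) scale. The means of the genotypes differed by -0.0048, and the del-cIDR replicates differed from each other by more than that and lay on either side of the KO replicates (exact two-sided permutation p = 1, where 0.333 is the smallest possible). In group 5, del-cIDR replicate 1 was below KO replicate 1 at 54.4% of peaks and del-cIDR replicate 2 at 66.2%, while in group 1 these shares were 68.9% and 65.7%. The libraries did not overlap, with del-cIDR lower, at 47.6% of peaks in group 1 and 35.8% in group 5, beside 44.3% over all tested peaks.

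The level was also taken from the WT libraries alone, which are in the fit and the filter but not in the difference itself. In 5 groups by the WT mean the median differences were -0.14, -0.14, -0.15, -0.15 and -0.14. The 67 peaks whose mean ratio reached 10 had medians of 12 and 10.9 in the del-cIDR libraries, 11.5 and 13.6 in the KO libraries and 12.7 and 9.98 in the WT libraries. Of these, 49 were lower and 18 higher in del-cIDR (73.1% lower, beside 80.3% over all). Their del-cIDR and KO library medians overlapped.

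**Figure D2:**
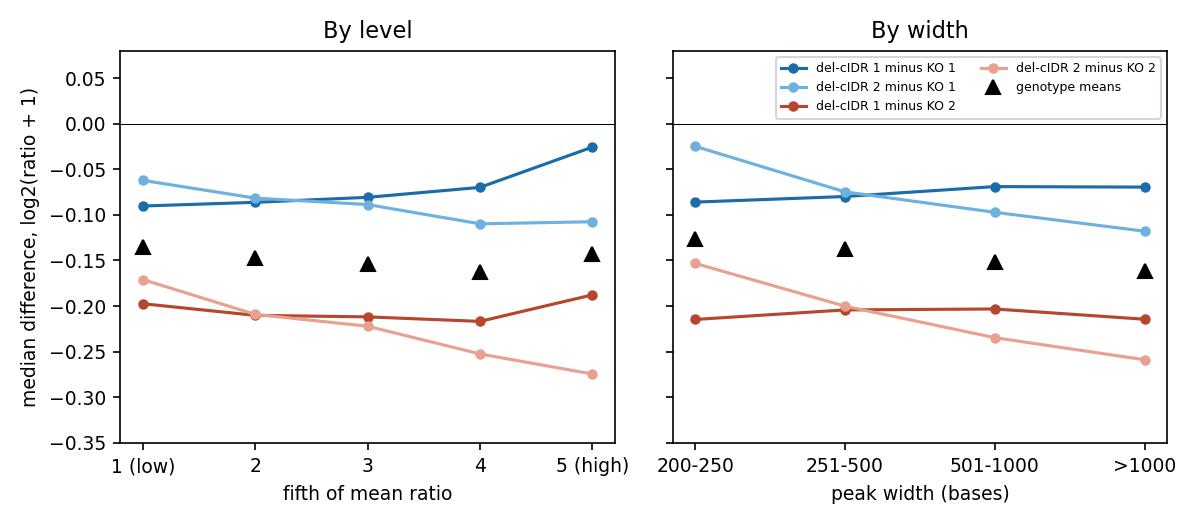
Median difference in del-cIDR minus KO over the peaks of a group (y axis, log2(ratio + 1) scale), by groups of mean ratio (left) and by peak width in bases (right). Lines join the 4 pairs of single libraries and black triangles are the differences of genotype means, which lie between -0.16 and -0.13 in all 9 groups.

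Wider peaks were more often lower in del-cIDR, although the size of the shift changed little. The 681 tested peaks of up to 250 bases had a median difference of -0.13, the 3694 of over 250 and up to 500 bases -0.14, the 3949 of over 500 and up to 1000 bases -0.15 and the 1127 of over 1000 bases -0.16. The shares lower in del-cIDR were 70.5%, 77.1%, 83.2% and 87.0% in the same order. The common shift can be taken as the difference between the mean library medians of del-cIDR and KO, -0.149. The shares of peaks below it, which do not rest on that shift, were 45.7%, 47.6%, 50.6% and 54.9%, beside 49.6% of all tested peaks. Without the scaling to the control every class was higher in del-cIDR, with median differences from 0.34 in the narrowest to 0.39 in the widest. As a ratio of genotype means, the median peak was 14.0%, 13.7%, 14.2% and 14.6% lower. Peaks whose libraries did not overlap, with del-cIDR lower, made up 34.5% of the narrowest class and 53.1% of the widest, beside 44.3% of all tested peaks. In the other direction they made up 9.40% and 2.48%, beside 5.18%.

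The rise with width was not seen in every pair of libraries. For del-cIDR replicate 2 against KO replicate 1, the share lower went from 52.9% in the narrowest class to 76.9% in the widest. For del-cIDR replicate 1 against the same KO library it was 64.6% and 64.2%. Against KO replicate 2 it went from 70.0% to 92.3% for del-cIDR replicate 2, and from 75.5% to 85.8% for del-cIDR replicate 1. The step in median log2(ratio + 1) from the narrowest to the widest class was 0.74 and 0.56 in the del-cIDR libraries and 0.68 and 0.72 in the KO libraries. These overlapped (difference of genotype means -0.05, exact two-sided permutation p = 1). Without del-cIDR replicate 2 the median difference was -0.16 in the narrowest and -0.14 in the widest class, and without del-cIDR replicate 1 it was -0.10 and -0.19.

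Level and reads moved with width. The median mean ratio rose from 1.36 in the narrowest class to 2.89 in the widest, and the middle number of input reads over the 4 libraries, in lowest terms, from at least 41.5 to at least 220.5 in the median peak. With level held, the scaled difference stayed below 0: in all 20 combinations of level group and width class the median was negative. In the 16 combinations with 139 peaks or more it ran from -0.19 to -0.12. The sign rests on the common shift. Of the 9 level groups and width classes taken singly, 4 had a median below 0 with each library centred, and 0 did without the scaling to the control. Within the highest level group the shares lower were 72.0%, 71.2%, 79.4% and 79.9% from the narrowest to the widest class. Within the lowest they were 71.1%, 77.8%, 87.2% and 94.0%. The 72.0% rests on only 25 peaks and the 94.0% on only 67.

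The share of peaks lower in del-cIDR followed the number of reads more closely than level. In 5 equal groups by the middle number of input reads it was 66.2%, 73.1%, 80.6%, 87.1% and 94.7%, and it rose in each of the 4 pairs of libraries between the group with the fewest and the group with the most reads. The median difference moved less, from -0.14 in the group with the fewest reads to -0.16 in the group with the most. Below the difference between the mean library medians of the genotypes lay 48.5% of the group with the fewest reads and 55.7% of the group with the most. Over all tested peaks this share was 49.6%. The spread narrowed: the 5th and 95th percentiles were -0.69 and 0.42 with the fewest reads and -0.31 and 0.0024 with the most. The median size of a difference between replicates fell from 0.28 to 0.11. Among the peaks with the most reads, the shares lower by width were 89.3%, 94.3%, 94.3% and 96.1%, a smaller range than over all peaks. Among those with the fewest reads they were 67.5%, 65.5%, 67.7% and 58.8%, the widest class (80 peaks) being the lowest. From the narrowest to the widest class they went from 62.9% to 74.8% in read group 2, from 75.8% to 81.0% in group 3 and from 83.1% to 90.0% in group 4. Thus the rise with width was not seen at the fewest reads.

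**Figure D3:**
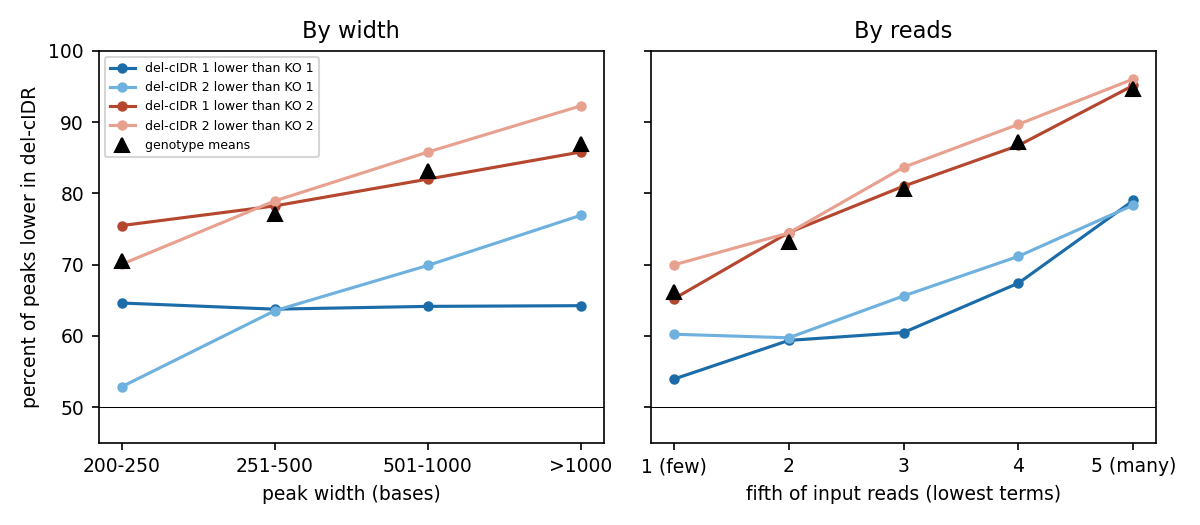
Percent of peaks lower in del-cIDR than in KO (y axis) by peak width in bases (left) and by groups of input reads in lowest terms (right). Lines join the 4 pairs of single libraries and black triangles are genotype means. From the fewest to the most reads all 4 lines end higher. That of del-cIDR replicate 2 against KO replicate 1 first dips from 60.2% to 59.7%. With width, the line of del-cIDR replicate 1 against KO replicate 1 stays near 64%.

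Across chromosomes the shift was of like size. On the 20 chromosomes with at least 222 tested peaks (all but Y), the median difference ran from -0.19 on chromosome 13 to -0.12 on chromosome 8, and the share of lower peaks from 75.2% on chromosome 6 to 86.5% on chromosome 14. The 8 tested peaks on chromosome Y, singled out after their values were seen, were all lower in del-cIDR by their means, with a median difference of -0.40. At 6 of them the libraries did not overlap, with del-cIDR lower, beside 44.3% of all tested peaks. No test of a chromosome against the others was made.

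The 10 peaks with the smallest p or the largest size among those lower in del-cIDR were 0.68 to 1.80 lower on the log2(ratio + 1) scale, and none passed the adjusted threshold. At chromosome 7, positions 4946539 to 4947261, the ratios were 1.08 and 1.17 in del-cIDR, 3.08 and 3.62 in KO and 2.20 and 1.85 in WT. The difference was -1.03 (SE 0.14, limma, adjusted p = 0.160). At chromosome 12, positions 9019607 to 9020597, they were 1.09 and 0.983 in del-cIDR, 3.03 and 4.98 in KO and 1.96 and 2.00 in WT. At both peaks the del-cIDR values lay close together, below WT, and the KO values above WT.

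Narrow peaks showed the same order of libraries. At chromosome 1, positions 182871040 to 182871304, the ratios were 0.675 and 0.410 in del-cIDR, 1.86 and 1.78 in KO and 1.05 and 0.962 in WT. At chromosome 2, positions 150110416 to 150110701, they were 0.586 and 0.752 in del-cIDR, 1.65 and 1.70 in KO and 0.915 and 0.843 in WT. At chromosome 4, positions 133392061 to 133392322, they were 1.17 and 2.01 in del-cIDR, 4.40 and 5.15 in KO and 3.40 and 3.60 in WT. At all 3 the del-cIDR libraries were the lowest. At chromosome 7, positions 43238707 to 43238973, WT overlapped KO instead, with 0.816 and 0.760 in del-cIDR, 2.44 and 2.01 in KO and 1.72 and 2.15 in WT.

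The 4 largest differences in this direction at peaks of at least median level were 1.34 to 1.80 in size. At chromosome 2, positions 175035187 to 175035445, the ratios were 2.77 and 1.47 in del-cIDR, 7.12 and 13.0 in KO and 6.12 and 1.67 in WT. The difference was -1.80 (SE 0.44, limma, adjusted p = 0.269), and the WT libraries were far apart as well. At chromosome 17, positions 12235111 to 12238085, a peak of 2975 bases, they were 6.01 and 4.84 in del-cIDR, 12.9 and 24.1 in KO and 11.9 and 7.07 in WT. At chromosome 6, positions 99603684 to 99603944, they were 1.08 and 1.97 in del-cIDR, 4.85 and 5.78 in KO and 1.87 and 2.98 in WT. At chromosome 7, positions 126983334 to 126983705, they were 2.23 and 1.11 in del-cIDR, 4.77 and 6.53 in KO and 3.46 and 3.83 in WT. Both del-cIDR libraries lay below both KO libraries at all 4 peaks, which was a condition of their choice.

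**Figure D4:**
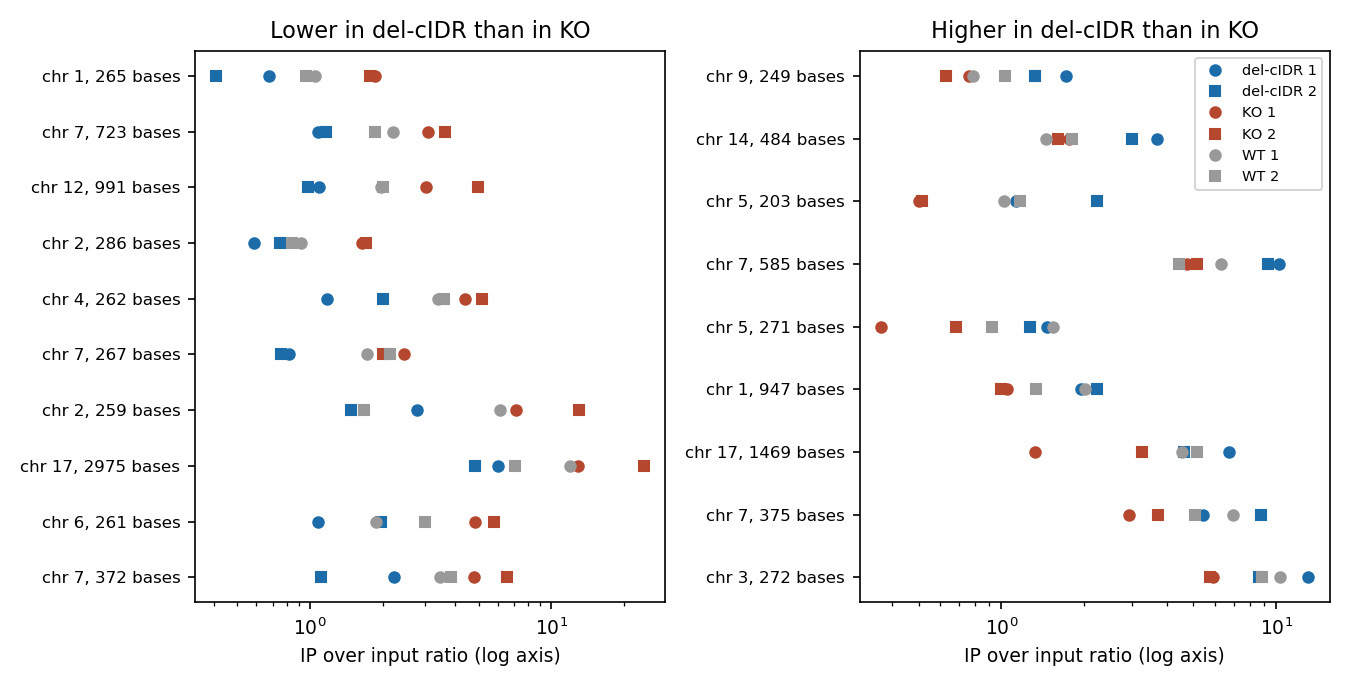
IP over input ratio in each library (x axis, log scale) at the peaks with the smallest p or the largest difference, lower (left) and higher (right) in del-cIDR than in KO. Each row is a peak given by chromosome and width, circles are replicate 1 and squares replicate 2. At every peak shown the blue points of del-cIDR do not overlap the red points of KO. For the peaks with the largest difference this was a condition of their choice.

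The 9 peaks named by the same rule in the other direction were 0.57 to 1.07 higher in del-cIDR, and none passed (limma, adjusted p of 0.245 to 0.324). Without the scaling to the control these 9 were 1.09 to 1.74 higher and all passed (limma, adjusted p of 0.0311 to 0.0342). They were chosen as extremes of their direction, so their passing is no separate support. The unscaled values are also not corrected for sequencing depth. Unscaled, 145 of all 9451 tested peaks passed as higher, and 5.16% of peaks were lower in del-cIDR. The 10 lower peaks then had differences of -1.32 to -0.37, and the chromosome 12 peak alone among them passed (limma, adjusted p = 0.0499). At chromosome 7, positions 82516538 to 82517122, the ratios were 10.2 and 9.34 in del-cIDR, 4.72 and 5.17 in KO and 6.27 and 4.44 in WT. This peak had both the replicates of del-cIDR and those of KO close together, and it was named by both parts of the rule (difference 0.86, SE 0.20, limma, adjusted p = 0.265). At chromosome 14, positions 76723005 to 76723488, the ratios were 3.70 and 2.98 in del-cIDR, 1.76 and 1.61 in KO and 1.45 and 1.81 in WT. In both peaks KO lay beside WT and del-cIDR above.

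At other peaks of this direction KO was the lowest genotype. At chromosome 5, positions 122377999 to 122378201, the ratios were 1.13 and 2.23 in del-cIDR, 0.501 and 0.514 in KO and 1.03 and 1.17 in WT. At chromosome 1, positions 92839120 to 92840066, they were 1.95 and 2.22 in del-cIDR, 1.05 and 0.996 in KO and 2.01 and 1.33 in WT. At chromosome 3, positions 88998913 to 88999184, they were 13.1 and 8.68 in del-cIDR, 5.90 and 5.73 in KO and 10.3 and 8.86 in WT. KO replicates agreed closely at all 3 of these peaks, and the WT libraries overlapped those of del-cIDR.

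The remaining peaks were more scattered. At chromosome 17, positions 15212063 to 15213531, the ratios were 6.72 and 4.62 in del-cIDR, 1.32 and 3.26 in KO and 4.55 and 5.16 in WT, the largest difference of this direction (1.07, SE 0.28, limma, adjusted p = 0.298). At chromosome 7, positions 30529257 to 30529631, they were 5.41 and 8.80 in del-cIDR, 2.91 and 3.72 in KO and 6.94 and 5.06 in WT. Low values were found at chromosome 5, positions 131503877 to 131504147, with 1.46 and 1.27 in del-cIDR, 0.366 and 0.682 in KO and 1.55 and 0.923 in WT, and at chromosome 9, positions 123247459 to 123247707, with 1.72 and 1.32 in del-cIDR, 0.764 and 0.630 in KO and 0.789 and 1.03 in WT. In these peaks, too, no KO library reached a del-cIDR library. At the chromosome 17 and chromosome 7 peaks this was a condition of their choice.

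These peaks had few reads. Of the 19 peaks named by p or size, 16 were in the group with the fewest input reads, and the highest middle number of input reads was 35.5, against a median of 96.5 over all tested peaks. The numbers are lower bounds, as the ratios give them in lowest terms. Of the 19, 10 were at most 300 bases wide.

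At peaks with many reads large differences were few and the spread was narrower. In the group with the most reads (at least 310 in the middle library), 1789 peaks were lower and 101 higher in del-cIDR, 1 was at least 2-fold lower and 0 at least 2-fold higher. Here 76 peaks (4.02%) had an unadjusted limma p under 0.05 and were lower and 2 (0.106%) were higher, smaller shares than the 10.4% and 1.33% over all tested peaks. In the group with the fewest reads the shares were 15.9% and 3.81%. The spread that the fit expects follows the mean ratio and not the reads, so p is not comparable between read groups. With the most reads, both del-cIDR libraries lay below both KO libraries at 65.0% of peaks, beside 44.3% of all tested peaks. The smallest adjusted p of this group was 0.298. The peaks described next are the 5 lowest and 4 highest differences of this group, chosen after their values were seen. On chromosome X, positions 63979509 to 63980069, the ratios were 0.954 and 1.25 in del-cIDR, 1.65 and 2.80 in KO and 1.47 and 1.42 in WT, a difference of -0.60 (SE 0.18, limma, adjusted p = 0.314). At chromosome 11, positions 102371934 to 102372737, they were 1.91 and 2.10 in del-cIDR, 2.98 and 3.54 in KO and 2.12 and 1.94 in WT. In both peaks the del-cIDR values lay beside or below WT and the KO values above.

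The other 3 of the lower peaks had differences of -0.46 to -0.44 (limma, adjusted p of 0.343 to 0.419). At chromosome 4, positions 108195235 to 108196090, the ratios were 1.56 and 1.45 in del-cIDR, 2.13 and 2.79 in KO and 2.06 and 1.56 in WT. At chromosome 1, positions 136395821 to 136396715, they were 2.61 and 2.71 in del-cIDR, 3.66 and 4.38 in KO and 2.82 and 2.48 in WT. At chromosome 4, positions 147419664 to 147420767, they were 4.12 and 5.39 in del-cIDR, 6.2 and 7.40 in KO and 5.54 and 5.10 in WT. KO was the highest genotype at all 3. Without the scaling to the control, the differences at these 3 peaks and at the chromosome 11 peak turned to 0.013, 0.10, 0.17 and 0.016, while that on chromosome X kept its sign.

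Few peaks with many reads ran the other way. At chromosome 8, positions 70709750 to 70710006, a peak with at least 691 input reads in the middle library, the ratios were 2.62 and 2.81 in del-cIDR, 1.40 and 1.70 in KO and 2.13 and 1.65 in WT. The difference was 0.55 (SE 0.15, limma, adjusted p = 0.298), and without the scaling to the control it was 1.14 (limma, adjusted p = 0.0331). At chromosome 14, positions 26647387 to 26647631, they were 1.73 and 2.06 in del-cIDR, 1.15 and 1.54 in KO and 1.09 and 1.21 in WT. At chromosome 6, positions 108641482 to 108642402, they were 8.04 and 6.61 in del-cIDR, 6.36 and 5.71 in KO and 6.41 and 6.57 in WT. The del-cIDR libraries were the highest at these 3 peaks. Unscaled, the chromosome 14 peak was 0.85 higher and passed (limma, adjusted p = 0.0496), and the chromosome 6 peak was 0.89 higher (adjusted p = 0.0615). These peaks were chosen as extremes, and 145 of all 9451 tested peaks passed as higher without the scaling.

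At 1 place on chromosome 5 a peak with few reads and a peak with many lay side by side and ran the same way. Both had been picked as higher in del-cIDR, so their shared direction follows from their choice. Of 740 pairs of neighbouring tested peaks up to 500 bases apart, 53.2% lay on the same side of the common shift. The peak from 122378311 to 122379273 had ratios of 2.19 and 2.16 in del-cIDR, 1.55 and 1.72 in KO and 2.36 and 2.05 in WT, a difference of 0.27 (SE 0.13, limma, adjusted p = 0.442). It starts after a gap of 109 bases from the 203-base peak named above, which was 0.80 higher in del-cIDR (adjusted p = 0.245). In both, KO was the lowest genotype. Unscaled, the wider peak was 0.82 higher (limma, adjusted p = 0.0523).

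None of the 3 peaks with the highest ratios passed the adjusted threshold. At chromosome 7, positions 96960990 to 96961961, the ratios were 28.4 and 39.0 in del-cIDR, 41.2 and 37.3 in KO and 34.8 and 30.1 in WT, and the genotypes overlapped (difference -0.23, SE 0.38, limma adjusted p = 0.779). At chromosome 3, positions 54806302 to 54806803, they were 21.8 and 15.0 in del-cIDR, 23.9 and 25.2 in KO and 21.4 and 24.8 in WT. At chromosome 11, positions 55064431 to 55064918, they were 12.3 and 22.0 in del-cIDR, 30.1 and 36.1 in KO and 16.4 and 14.4 in WT, with del-cIDR beside WT and KO well above (difference -0.95, SE 0.34, limma adjusted p = 0.350).

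The 3 widest peaks varied between replicates as well. At chromosome 3, positions 6363063 to 6372694, a peak of 9632 bases, the ratios were 6.02 and 5.41 in del-cIDR, 5.80 and 8.67 in KO and 6.68 and 6.01 in WT. At chromosome 15, positions 75974190 to 75981722, they were 2.28 and 3.59 in del-cIDR, 2.33 and 4.12 in KO and 3.77 and 2.56 in WT. At chromosome 10, positions 27694469 to 27701721, they were 7.10 and 4.54 in del-cIDR, 7.81 and 9.70 in KO and 5.84 and 10.4 in WT. At the first 2 of these the del-cIDR and KO libraries overlapped, and at the last they did not (difference -0.54, SE 0.29, limma, adjusted p = 0.459).

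As a set, the 73 peaks of at least 2000 bases were shifted like the rest of the wide peaks. Their median ratios were 3.28 and 3.25 in the del-cIDR libraries and 3.64 and 4.12 in the KO libraries, with a median difference of -0.18. Of these, 65 were lower in del-cIDR. At 44 (60.3%) the libraries did not overlap, with del-cIDR lower, and at 0 with del-cIDR higher, beside 44.3% and 5.18% of all tested peaks.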

How the data were processed

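The m6A table deposited by the authors gives 1 ratio per peak and IP library. The deposited values are IP over input ratios times 1 constant per library, under which the row of the m6A control is equal in every library. Reads were recovered as the lowest-term fraction of each value over its constant and are lower bounds. At least 99.95% of values per library matched a fraction. The file's name gives another unit, and no source used here describes the step that made the ratios. The submitters' processing notes name GRCm39 and the tools bedtools, featureCounts, MACS2, Picard, SAMtools, HISAT2 and fastp.

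Values were tested on log2(ratio + 1) with limma 3.58.1 in R 4.3.3, on peaks whose ratio averaged at least 1, with 3 genotypes in 1 fit, a trended variance prior and Benjamini-Hochberg adjustment, and summarised with Python 3.11.15. The fit was tested on simulated data with independent noise. That simulation held no shift of a whole library and no change of spread with reads, so it does not cover these. The peaks named were in each direction, the 6 with the smallest p and the 4 largest differences among non-overlapping peaks of at least median level, and the 3 highest and 3 widest peaks, leaving out chromosome 18. Members and lists were chosen with earlier results of these data known. Gene lists, cell type markers and sequence features could not be matched to positions of this build and were not analysed here. Neither was the mRNA table. Replicate numbers did not pair the samples (correlation of deviations 0.022). Alternatives covered pseudocount, filter, scaling, centring, trend, samples in the fit, replicate block and each replicate left out.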

Additional observations from a re-analysis of the deposited data

How the results depend on the processing

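The median difference of -0.15 stayed below 0 with pseudocounts of 0.1 and 0.5, without the filter and with a minimum mean ratio of 2. It was 0.0015 after centring each library, -0.0035 after quantile normalisation, both of which remove a common shift by construction, and 0.38 without the scaling to the control. The unscaled values have no correction for sequencing depth either. Leaving out 1 library gave -0.21 to -0.079. The share of lower peaks was 49.6% centred, 50.7% after quantile normalisation, 5.16% unscaled, 90.3% at peaks with at least 50 input reads in each of the 4 libraries, and 67.2% to 83.8% with 1 library left out. Peaks past the adjusted threshold numbered 146 unscaled (1 lower, 145 higher), 109 with the replicate block (98 lower, 11 higher), where the numbers do not pair the samples, and 0 to 5 with 1 library left out. With an unadjusted p under 0.05 there were 1778 peaks without the filter, 510 with a minimum mean ratio of 2, 3198 unscaled, and 594 to 1364 with 1 library left out. The median difference of the highest minus the lowest level group, -0.0084, was 0.057 with a pseudocount of 0.1, 0.018 with 0.5, -0.072 without the filter, 0.00071 with a minimum mean ratio of 2, -0.0015 after quantile normalisation, 0.17 unscaled and -0.075 to 0.046 with 1 library left out. That of the widest minus the narrowest class, -0.04, was -0.014 with a pseudocount of 0.1, -0.074 without the filter, -0.017 with a minimum mean ratio of 2, 0.056 unscaled and -0.091 to 0.02 with 1 library left out. Of 34 named peaks, 27 had an unadjusted limma p under 0.05, against 17 of the 24 still tested with a minimum mean ratio of 2. Of the 34, 19 were named by p or size in this same fit, and others as extremes of the group with the most reads. The count thus follows largely from their choice and is no support. Over all 9451 tested peaks 1112 had such a p. The 7533-base peak on chromosome 15 turned to 0.060 centred, 0.078 after quantile normalisation, 0.49 unscaled, 0.15 without del-cIDR replicate 1 and 0.22 without KO replicate 2, with a range of -0.40 to 0.22 over the libraries left out. Unscaled, the peaks at 96960990 on chromosome 7, 54806302 and 6363063 on chromosome 3 and 27694469 on chromosome 10 turned to 0.47, 0.27, 0.36 and 0.091. Those at 102371934 on chromosome 11, 108195235 and 147419664 on chromosome 4 and 136395821 on chromosome 1 turned to 0.016, 0.013, 0.17 and 0.10. The cause was not tested. With 2 libraries per genotype the smallest exact p is 0.333.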

Other observations

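The 3472 peaks with a mean ratio under 1, which were not tested, leaned the same way. Their median ratios were 0.632 and 0.650 in the del-cIDR libraries and 0.710 and 0.806 in the KO libraries. The mean ratio was lower in del-cIDR at 2749 of them (79.2%).

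On chromosome Y the peak with the smallest p, from 74585455 to 74585795, had ratios of 1.95 and 2.44 in del-cIDR, 3.64 and 5.60 in KO and 2.40 and 2.69 in WT (difference -0.80, not past the adjusted threshold of limma), on at least 11 input reads in the middle library. The peak with the most reads there, from 90822369 to 90824153, had 5.67 and 8.74 in del-cIDR, 9.02 and 10.8 in KO and 7.85 and 7.86 in WT. Peaks of this chromosome can share sequence with close copies, and no source used here says how such reads were counted.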
